A study of Mus musculus with 14 samples.

Results

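The epithelium of the fetal urogenital sinus (UGE) was compared with the Sca-1Hi cells of the adult mouse prostate across all genes measured on 6 of the 14 arrays of the series, chosen by their sample titles. The question was what separates the fetal from the adult population enriched in prostate stem cells. The 3 UGE samples came from C57BL/6 embryos at day 16, and neither their sex nor the number of embryos in a sample was given in the labels. By the methods of the study they were dissected from the urogenital sinus, while the extract protocol in their labels speaks of sorted cells. The methods are followed here. The 3 Sca-1Hi samples were the cells with the highest surface Sca-1, taken by flow sorting from digested proximal ducts of normal prostates of males labelled as C57BL and 6 to 8 weeks old (C57BL/6 in the methods of the study). The 4 Sca-1Lo samples (medium to low Sca-1) and the 4 Sca-1Neg samples (no Sca-1) of the same source are given beside them. The labels name no treatment. By the methods, stage and preparation differed together between UGE and Sca-1Hi and cannot be told apart. Nothing in the labels says whether replicates came from separate animals, so p-values measure the spread between these samples.

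The prostate forms when the inner epithelium of the urogenital sinus, prompted by androgens through the surrounding mesenchyme, buds outward and branches into ducts. In the adult, basal cells line the ducts below luminal cells, which secrete the proteins of the prostatic fluid, and cells of the duct region near the urethra divide rarely and can regenerate prostatic tissue. Sca-1, encoded by *Ly6a*, is a surface protein of such cells and also of blood vessel endothelium, some lymphocytes and stromal cells. A gate on Sca-1 alone can therefore hold all of these.

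Signals are PLIER intensities on a linear scale, given for replicates 1, 2 and 3 in that order, and differences are log2 UGE minus Sca-1Hi from limma. A gene is called at an adjusted p under 0.05 with a log2 difference over 0.81 either way. Signals up to 20 are treated as a floor, and where every array of a group or its mean lies there, the fold is a lower bound. Medians of the 6 arrays ran from 64.3 to 70.6 in UGE and from 76.3 to 81.0 in Sca-1Hi. Arrays of the same group correlated at 0.927 to 0.970 (Pearson, log2, across probe sets, which are not independent replicates) and arrays of different groups at 0.764 to 0.828. The log2 ratio of the 3' to the 5' signal of Gapdh, which rises as RNA is shortened, was 1.83 to 2.38 in UGE and 3.07 to 3.48 in Sca-1Hi, with no overlap, and that of *Actb* was 1.54 to 2.09 and 1.59 to 2.77. The part of RNA quality in the results was not tested. UGE replicate 1 stood apart in nerve and embryonic blood genes, such as the neuronal tubulin gene *Tubb3* (3176, 63.1 and 58.7 in the 3 UGE samples) and the embryonic globin gene *Hbb-y* (5603, 14.8 and 984). Sca-1Hi replicate 3 stood apart in muscle genes, such as *Tagln* (936, 976 and 5753 in the 3 Sca-1Hi samples).

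Sequences are shown first for genes of 3 groups described below, whose members moved together. In each group, genes without a marked motif in the printed bases were passed over, so every sequence shown holds a motif by selection. Each is the 200 bases before the start of transcription in RefSeq (build GRCm38.p6), written 5' to 3' on the strand of the gene. In the promoters of mitosis genes, capitals mark CCAAT, the letters bound by NF-Y, and TTTGAA, the core of the cell cycle homology region, each read on either strand. *Bub1* lies at chr2:127831860-127832059, minus strand, *Top2a* at chr11:99024190-99024389, minus strand, and *Mki67* at chr7:135716380-135716579, minus strand. Among called mitosis genes with a promoter searched here, they had the largest differences of those that hold either motif in these 200 bases, with low signals set to 20.
*Bub1*: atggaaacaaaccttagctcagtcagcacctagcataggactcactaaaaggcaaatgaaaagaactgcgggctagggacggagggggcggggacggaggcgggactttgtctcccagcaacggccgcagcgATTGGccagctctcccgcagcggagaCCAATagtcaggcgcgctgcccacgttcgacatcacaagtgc
*Top2a*: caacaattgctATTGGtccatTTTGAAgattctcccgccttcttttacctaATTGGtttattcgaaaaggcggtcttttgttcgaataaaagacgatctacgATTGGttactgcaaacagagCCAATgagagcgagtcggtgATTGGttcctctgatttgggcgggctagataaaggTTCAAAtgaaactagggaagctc
*Mki67*: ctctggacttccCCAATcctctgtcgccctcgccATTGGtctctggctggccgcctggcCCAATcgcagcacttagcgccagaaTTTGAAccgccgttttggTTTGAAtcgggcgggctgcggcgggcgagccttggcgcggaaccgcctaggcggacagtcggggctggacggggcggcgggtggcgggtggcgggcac

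In the promoters of DNA replication genes, capitals mark TTTCCCGC (GCGGGAAA) or TTTGGCGC (GCGCCAAA), letters bound by E2F factors. *Cdc6* lies at chr11:98907951-98908150 and *Mcm5* at chr8:75109309-75109508, both on the plus strand.
*Cdc6*: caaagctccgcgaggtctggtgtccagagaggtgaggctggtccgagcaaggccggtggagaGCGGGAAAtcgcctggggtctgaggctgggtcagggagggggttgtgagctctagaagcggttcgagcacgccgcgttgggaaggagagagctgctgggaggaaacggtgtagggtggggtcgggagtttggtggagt
*Mcm5*: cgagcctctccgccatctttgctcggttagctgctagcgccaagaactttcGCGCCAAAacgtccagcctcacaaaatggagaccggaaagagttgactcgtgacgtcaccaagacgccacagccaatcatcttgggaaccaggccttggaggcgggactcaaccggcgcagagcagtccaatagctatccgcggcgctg

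In the promoters of interferon-responsive genes, capitals mark TTTC and TTTC set 2 bases apart (GAAA and GAAA on the other strand) and those 2 bases, the core of the interferon-stimulated response element. *Rsad2* lies at chr12:26456453-26456652, minus strand, and *Gbp2* at chr3:142620463-142620662, plus strand.
*Rsad2*: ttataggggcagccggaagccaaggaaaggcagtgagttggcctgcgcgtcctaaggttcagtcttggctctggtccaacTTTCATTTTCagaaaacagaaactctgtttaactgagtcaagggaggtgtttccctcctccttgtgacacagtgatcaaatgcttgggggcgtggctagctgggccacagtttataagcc
*Gbp2*: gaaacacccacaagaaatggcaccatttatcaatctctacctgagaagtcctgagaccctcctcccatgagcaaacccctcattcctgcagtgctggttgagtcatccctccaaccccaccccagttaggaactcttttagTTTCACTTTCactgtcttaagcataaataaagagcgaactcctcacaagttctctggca

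Both strands of windows of 300 bases, from 250 before to 50 after the start, were searched for 13571 of the genes tested, 1 window a gene. CCAAT was in 29 of 39 (74.4%) promoters of mitosis genes against 38.1% of all genes tested, and TTTGAA in 28 of 39 (71.8%) against 12.9%. Of the replication genes, 22 of 35 (62.9%) held CCAAT, 6 of 35 (17.1%) TTTCCCGC and 6 of 35 (17.1%) TTTGGCGC, against 1.73% and 0.877% of all genes for the last pair. The interferon core was in 17 of 28 (60.7%) promoters of interferon-responsive genes against 3.02%. Promoters of cholesterol and fatty acid synthesis genes held CCAAT in 19 of 24 (79.2%). TGACGTCA, the cyclic AMP response element, was in 2 of 31 (6.45%) promoters of immediate early genes against 2.73%, TGANTCA, the AP-1 site, in 0 of 31 (0%) against 5.99%, and the CArG box in 1 of 31 (3.23%) against 1.31%. The sterol element TCACNCCAC was in 1 of 24 (4.17%) of the cholesterol group against 1.16%. A match describes letters in a window and not a site in use.

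Across 17149 genes tested, 2712 (15.8%) were called higher and 2057 (12.0%) lower in UGE than in Sca-1Hi. These shares are the background against which counts within a gene list can be read. The median difference over all genes was 0.00 on the log2 scale, with quartiles of -0.62 and 0.69. Every UGE array lay above every Sca-1Hi array in 2700 of the genes called higher and below in 2035 of those called lower. Over all genes tested, called or not, the arrays lay apart in these ways in 4915 (28.7%) and 4091 (23.9%). Large differences were more often decreases, with 263 genes over 8-fold higher and 439 over 8-fold lower, and 28 and 86 beyond 32-fold, with signals set to at least 20. Leaving out any single array of either group, 1667 of the genes called higher and 1226 of those called lower kept the call throughout. By probe set, 5464 were higher and 4962 lower of 41031, and 15649 had an unadjusted p under 0.05. Of 2512 called genes with several probe sets, 740 had all of them called in the direction of the gene, and 131 had a probe set called in the opposite direction. In the others at least 1 probe set was not called.

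**Figure D1:**
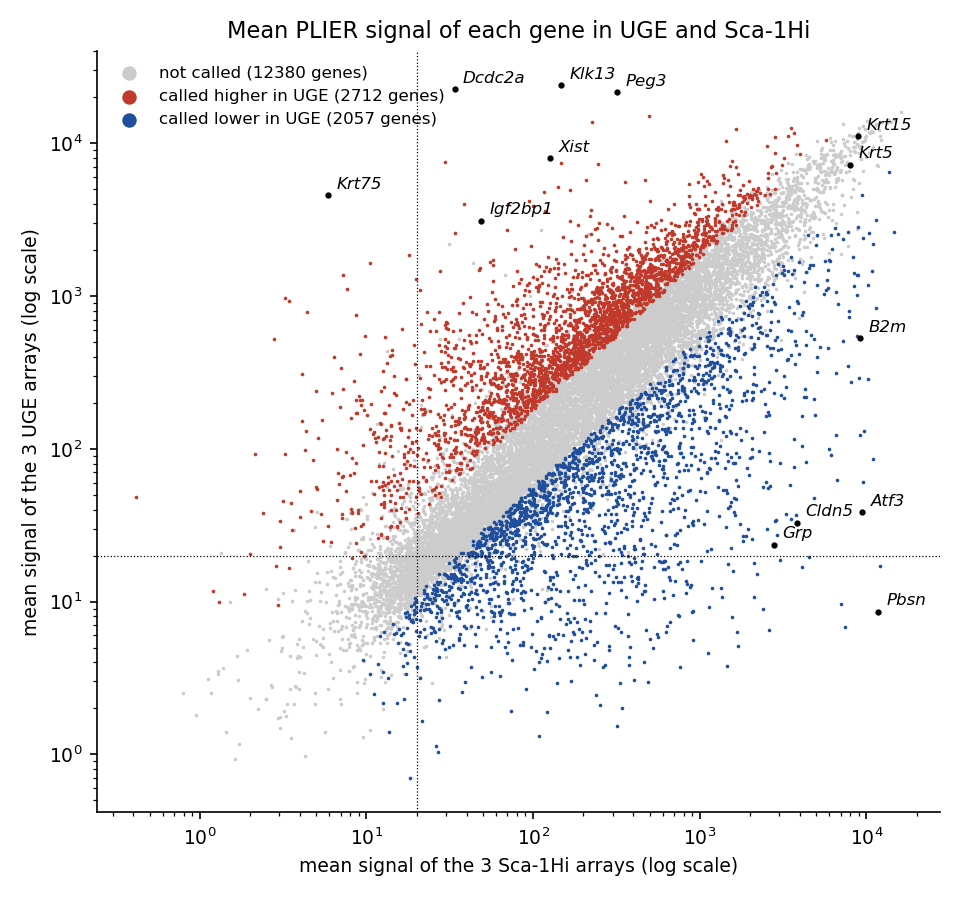
Mean PLIER signal of each of 17149 genes over the 3 UGE arrays (vertical, log scale) against the 3 Sca-1Hi arrays (horizontal, log scale), with genes called higher in UGE in red (2712), lower in blue (2057), not called in grey and 13 named genes in black. Dotted lines mark the signal of 20, and the basal keratins *Krt5* and *Krt15* lie near the diagonal while *Pbsn* and *Dcdc2a* lie far from it.

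The 15 largest increases included 3 imprinted genes, a cyclin, *Igf2bp1* and *Xist*, which are described with their groups. *Dcdc2a*, which encodes a microtubule-binding protein, had signals of 20039.9, 10932 and 36795 in UGE and 39.7, 33.5 and 28.2 in Sca-1Hi (log2 difference 9.23 ± 0.43 SE, adjusted p = 2.44e-08). Its lowest UGE array was far above its highest Sca-1Hi array, and its means were 35.6 in Sca-1Lo and 48.8 in Sca-1Neg. *Upk3bl*, a relative of the uroplakins of the urinary tract lining, reached 6121, 10739 and 5644 in UGE and 38.2, 28.1 and 23.1 in Sca-1Hi (log2 difference 7.95 ± 0.44 SE, adjusted p = 1.35e-07). The keratin gene *Krt75*, known from hair follicles, was at least 216-fold higher, adjusted p = 1.16e-08, with 3489, 6734 and 3424 in UGE and 4.34, 2.84 and 10.4 in Sca-1Hi. The protease genes *Klk13* (a kallikrein, 16786, 34609 and 20305 in UGE and 284, 77.6 and 77.8 in Sca-1Hi) and *Asprv1* (a skin aspartic protease, 3215, 5420.5 and 3384 in UGE and 80.6, 64.97 and 65.6 in Sca-1Hi), were 190.2-fold higher and 55.6-fold higher. *Sp6*, a transcription factor of teeth and hair, was 66.1-fold higher, adjusted p = 1.76e-04, and *P4ha3*, a collagen prolyl hydroxylase, at least 65.9-fold higher, adjusted p = 2.37e-08. Of 4 *Sp6* probe sets, 1 was called, as was 1 of 2 for *Dcdc2a*. *Neto2*, an accessory subunit of kainate receptors, and *Brinp1* were at least 85.3-fold higher and 77.9-fold higher. Within Sca-1Hi, replicate 1 was the highest in *Klk13*, *Asprv1* and *Sp6*.

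The 15 largest decreases included 7 secreted proteins of the adult gland, the endothelial genes *Cldn5* and *Plvap*, the stress gene *Atf3* and the efflux pump gene *Abcb1a*, most of which are described with their groups. Probasin, *Pbsn*, had signals of 8.79, 13.5 and 3.46 in UGE and 14173, 8701 and 12407 in Sca-1Hi (at least 576-fold lower, adjusted p = 9.43e-09), so all UGE arrays lay under the floor of 20. The uncharacterized transcript *9530002B09Rik* followed the same pattern with 10.2, 11.4 and 7.03 in UGE and 8981, 4026 and 8047 in Sca-1Hi (at least 331-fold lower, adjusted p = 9.85e-09). *Defb1*, a secreted antimicrobial defensin, was 115-fold lower, adjusted p = 1.54e-07. *Grp*, the precursor of gastrin-releasing peptide, had signals of 43.9, 19.9 and 6.94 in UGE and 2457, 2657 and 3284 in Sca-1Hi (log2 difference -7.25 ± 0.58 SE, adjusted p = 1.93e-06, or -6.74 with low signals set to 20), and its means were 740.1 in Sca-1Lo and 31.8 in Sca-1Neg. *Tm4sf1*, a membrane protein abundant in endothelium, was 132-fold lower, adjusted p = 3.11e-06. The mean of *Grp* in Sca-1Hi was 2799.5, above both, whereas those of *9530002B09Rik* were 7018 in Sca-1Hi, 9093 in Sca-1Lo and 7703 in Sca-1Neg.

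**Figure D2:**
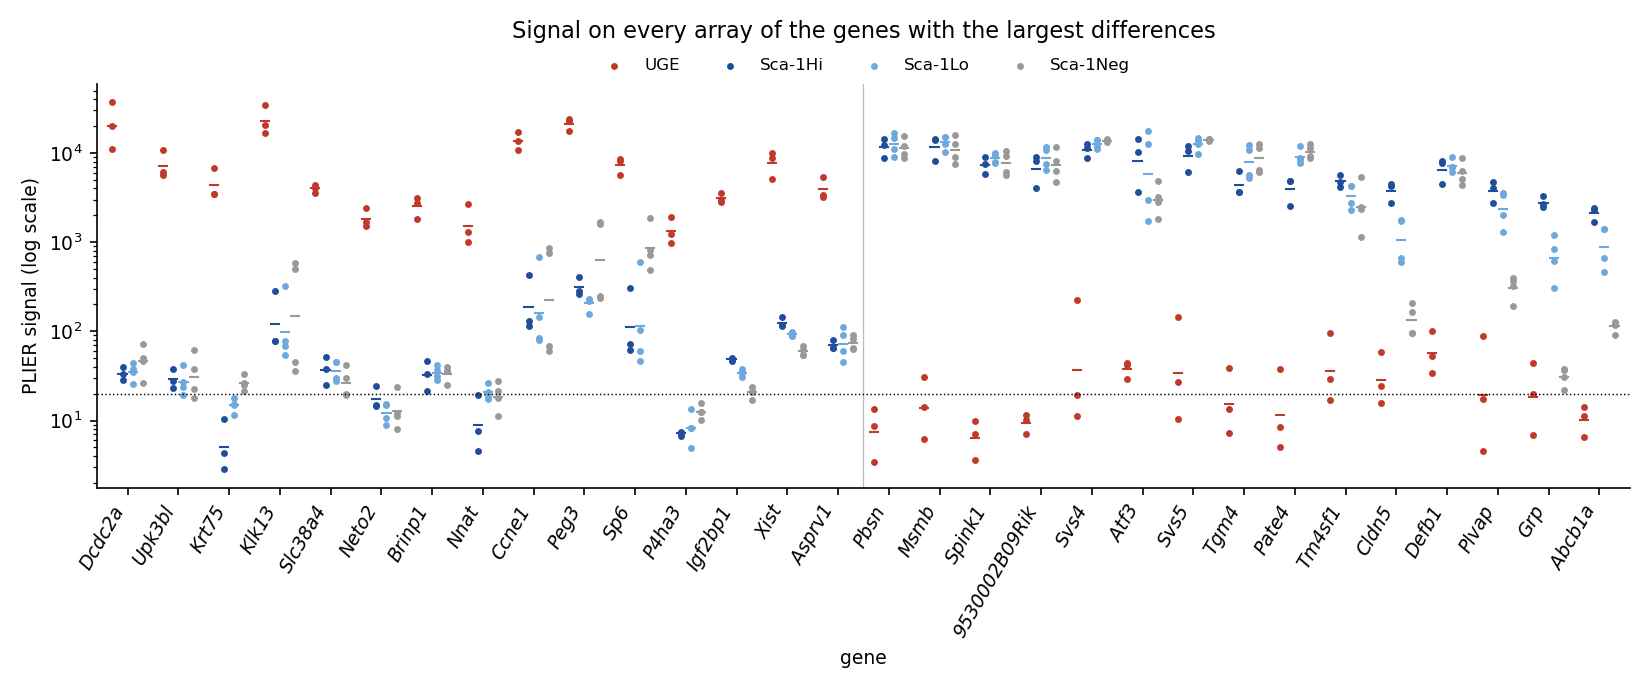
PLIER signal (log scale) on each of the 14 arrays for the 15 genes highest and the 15 lowest in UGE against Sca-1Hi, with a dot for each array, a bar at the mean of the log2 signals and a dotted line at 20. UGE (red) lies apart from Sca-1Hi (dark blue) in all 30 by the rule that chose them, and the position of Sca-1Lo and Sca-1Neg differs from gene to gene.

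Most genes of mitosis and DNA replication were higher in UGE. Of 46 mitosis genes tested, 40 were called higher and none lower, with a median log2 difference of 3.52 against 0.00 over all genes. *Bub1*, a kinase of the spindle checkpoint, had signals of 479, 619 and 668 in UGE and 29.1, 15.8 and 33.3 in Sca-1Hi (log2 difference 4.55 ± 0.33 SE, adjusted p = 9.11e-07). *Top2a*, the topoisomerase that untangles replicated chromosomes, reached 3136, 3709.6 and 4118 in UGE and 261, 107 and 297 in Sca-1Hi (log2 difference 4.16 ± 0.39 SE, adjusted p = 7.31e-06). The proliferation antigen gene *Mki67* had 2635, 3594 and 3858 in UGE and 233, 125 and 302 in Sca-1Hi (log2 difference 4.01 ± 0.38 SE, adjusted p = 7.31e-06). All 3 UGE arrays lay far above every Sca-1Hi array in these genes, whose promoters are shown above. Of 2 *Top2a* probe sets, 1 was called. *Aurkb*, a mitotic kinase (16.2-fold higher), *Ube2c*, a partner of the anaphase-promoting complex (15.3-fold higher), and *Kif20a*, a kinesin of cell separation (at least 16.05-fold higher), moved the same way. The same 46 genes gave 40 higher and none lower against Sca-1Lo, where 13.4% of all genes were called higher and 12.2% lower, and 40 and none against Sca-1Neg, where the shares were 16.3% and 12.9%. The 3 comparisons share the UGE arrays.

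DNA replication genes followed, with 35 of 43 higher and none lower (median 1.81). *Cdc6*, which loads the replicative helicase, had signals of 344, 473 and 423 in UGE and 36.7, 18.7 and 37.5 in Sca-1Hi (log2 difference 3.79 ± 0.43 SE, adjusted p = 3.16e-05). *Mcm5*, a subunit of that helicase, had 2097, 2371 and 2539.8 in UGE and 299, 193 and 241 in Sca-1Hi (log2 difference 3.27 ± 0.26 SE, adjusted p = 1.70e-06), and *Mcm3*, another, was 7.17-fold higher, adjusted p = 4.02e-06. *Gins2*, a subunit of the active helicase, and *Tk1*, a thymidine kinase, were 8.997-fold higher and 7.73-fold higher. *Uhrf1*, which couples replication to DNA methylation, was 13.7-fold higher, adjusted p = 2.11e-06. Among cyclins, E2F factors and Myc genes, 13 of 25 were higher and 1 lower. Cyclin E1, *Ccne1*, which drives entry into DNA synthesis, reached 10765, 13459.5 and 17264 in UGE and 428, 132 and 116 in Sca-1Hi (log2 difference 6.18 ± 1.05 SE, adjusted p = 8.12e-04), and *Ccne2* was 8.03-fold higher, adjusted p = 2.29e-05. *E2f7* and *E2f8*, repressors of the E2F family, were 12.9-fold higher and 6.86-fold higher. The Myc genes differed in direction. *Mycn* had 2912, 3786 and 4940.5 in UGE and 90.5, 72.4 and 135 in Sca-1Hi (log2 difference 5.30 ± 0.61 SE, adjusted p = 3.80e-05) and *Mycl* was 9.41-fold higher, adjusted p = 0.00155, while *Myc*, an immediate early gene in many cells, was the member called lower, with 155, 134 and 112 in UGE and 269.5, 573 and 499 in Sca-1Hi (log2 difference -1.68 ± 0.41 SE, adjusted p = 0.00798). Of 3 *Mycn* probe sets, 1 was called.

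Of 19 inhibitors of the cell cycle and genes of quiescence, 10 (52.6%) were called lower, against 12.0% of all genes. The 3 called higher (15.8%) matched the 15.8% of all genes. *Cdkn1c*, an imprinted inhibitor of cyclin-dependent kinases expressed in embryos, was higher (5877, 6538 and 5600.1 in UGE and 425, 1363 and 1355 in Sca-1Hi, log2 difference 2.70 ± 0.55 SE, adjusted p = 0.00282). The others called higher were *Cdkn2b* (log2 difference 1.82) and *Cdkn1a* (1.47), also inhibitors of cyclin-dependent kinases. The members called lower included *Klf2* (72.6, 34.1 and 28.01 in UGE and 1532, 1137 and 1944 in Sca-1Hi, log2 difference -5.19 ± 0.64 SE, adjusted p = 6.17e-05), a Krüppel-like factor of quiescent endothelium and lymphocytes, *Klf4* (329.99, 611 and 431 in UGE and 3195, 7866 and 6455 in Sca-1Hi, log2 difference -3.62 ± 0.64 SE, adjusted p = 0.00109), a factor of differentiating epithelia, and *Gadd45g* (-3.71), a stress-response gene. *Klf2* is also among the immediate early genes. The 10 were 6 without UGE replicate 2 or Sca-1Hi replicate 2 and 5 without UGE replicate 3 or Sca-1Hi replicate 3, and the 3 called higher were 1 without UGE replicate 2, Sca-1Hi replicate 1 or Sca-1Hi replicate 2. *Cdkn1c*, *Klf2*, *Klf4* and *Gadd45g* kept the call in all of these.

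Growth genes of the fetus were higher in UGE. Of 17 oncofetal genes and genes held down by let-7 microRNAs in adult tissue, 10 were called higher and none lower (median 1.74, 1.46 with signals at the floor set to 20). The RNA-binding protein genes *Igf2bp1* (2983, 3557 and 2795 in UGE and 48.5, 50.4 and 46.9 in Sca-1Hi, log2 difference 5.99 ± 0.22 SE, adjusted p = 3.42e-09) and *Igf2bp3* (5943, 9614 and 6519 in UGE and 192, 328 and 215 in Sca-1Hi, log2 difference 4.92 ± 0.28 SE, adjusted p = 1.35e-07) bind and stabilize growth-related messages in embryos. *Hmga2*, a chromatin protein of embryonic cells, had 1687, 1069.7 and 1815 in UGE and 75.7, 34.5 and 33.8 in Sca-1Hi (log2 difference 5.06 ± 0.36 SE, adjusted p = 7.98e-07), with 4 of 4 probe sets called higher. The claudin gene *Cldn6*, active in embryonic cells, was at least 48.3-fold higher, adjusted p = 7.48e-07, and *Plagl2*, a zinc finger activator, 22.01-fold higher, adjusted p = 5.60e-06. In all 5 genes the groups were far apart.

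Imprinted genes, expressed from a single parental allele and many of them active in fetal growth, gave 11 higher and 2 lower of 24. *Igf2*, a fetal growth factor, had 4894, 6748 and 5193 in UGE and 459.7, 301 and 301 in Sca-1Hi (log2 difference 4.002 ± 0.39 SE, adjusted p = 1.02e-05), with 1 of 2 probe sets called. *Peg3*, a zinc finger protein, had 17645, 22779 and 24138 in UGE and 282, 261 and 409.7 in Sca-1Hi (log2 difference 6.10 ± 0.66 SE, adjusted p = 2.13e-05), and *Slc38a4*, an amino acid transporter, 3585, 4048 and 4404 in UGE and 51.7, 25.03 and 38.2 in Sca-1Hi (log2 difference 6.77 ± 0.36 SE, adjusted p = 8.00e-08). *Nnat*, a small membrane protein, was at least 75.9-fold higher, adjusted p = 5.29e-07, and *Zdbf2* at least 12.2-fold higher, adjusted p = 2.88e-06. *Mest* varied within UGE (3036, 286 and 1482 in UGE and 49.4, 62.5 and 59.5 in Sca-1Hi, log2 difference 4.26 ± 0.87 SE, adjusted p = 0.00282). The members called lower were *Phlda2*, a brake on placental growth (69.7, 67.6 and 69.95 in UGE and 292, 288 and 211 in Sca-1Hi, log2 difference -1.92 ± 0.41 SE, adjusted p = 0.00355), and *Snrpn*, which encodes a splicing protein (10.1, 24.6 and 17.3 in UGE and 82.2, 54.4 and 55.7 in Sca-1Hi, at least 2.94-fold lower, adjusted p = 0.00279). *Meg3* and *Ndn* were not called (log2 differences 2.87 and 1.88, adjusted p = 0.0706 and adjusted p = 0.0817).

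Chromatin regulators had 18 of 31 members higher and 2 lower. *Ezh2*, the methyltransferase of Polycomb in dividing cells, was 7.54-fold higher, adjusted p = 3.96e-06 (2103, 2557 and 2799 in UGE and 295, 295 and 403 in Sca-1Hi), whereas its relative of resting cells, *Ezh1*, was 2.38-fold lower, adjusted p = 0.00754 (252, 415 and 351 in UGE and 705, 782 and 903 in Sca-1Hi). The Polycomb readers *Cbx2* and *Cbx7* also went opposite ways, with log2 differences of 3.10 (adjusted p = 1.39e-05) and -2.15 (adjusted p = 0.00266). *Tet1*, which oxidizes methylcytosine, *Dnmt3a*, which methylates DNA anew, and *Hells*, a helicase of DNA methylation, were 12.7-fold higher, 6.96-fold higher and 10.9-fold higher. All 5 *Dnmt3a* probe sets and all 3 of *Hells* were called higher, while for *Ezh1* 2 of 4 and for *Cbx7* 1 of 3 were called lower.

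Metabolic genes were higher in selected pathways. Glycolysis gave 12 of 20 higher and none lower (median 1.77), among them *Pfkl*, a phosphofructokinase (3177, 4537 and 3464 in UGE and 731, 578 and 619.8 in Sca-1Hi, log2 difference 2.52 ± 0.29 SE, adjusted p = 3.51e-05), *Pgam1* (4.75-fold higher), *Hk2* (4.19-fold higher) and *Ldhb* (4.34-fold higher). Another probe set of *Pfkl* and of *Aldoc* was called lower. Synthesis of cholesterol and fatty acids gave 17 of 30 higher and 1 lower (median 1.20). *Sqle*, squalene epoxidase, had 1865, 2837 and 2661 in UGE and 358, 264 and 398 in Sca-1Hi (log2 difference 2.85 ± 0.33 SE, adjusted p = 4.33e-05), *Idi1*, an isomerase of the same pathway, 1369.9, 1269.6 and 1470.1 in UGE and 284, 129 and 209 in Sca-1Hi (log2 difference 2.80 ± 0.34 SE, adjusted p = 5.90e-05), and *Elovl6*, a fatty acid elongase, was 6.88-fold higher, adjusted p = 7.59e-04. Against Sca-1Neg, 8 of the 30 were higher, a difference between comparisons that was not tested. Of 49 subunits of oxidative phosphorylation, 1 was called higher, *Ndufs4* (log2 difference 1.08 ± 0.25 SE, adjusted p = 0.00619), and none lower. Another probe set of *Ndufs4* was called lower. Ribosome biogenesis gave 25 of 39 higher and none lower (median 1.02), such as *Dkc1*, a pseudouridine synthase of ribosomal RNA (1083, 1596 and 1543 in UGE and 269, 366 and 452 in Sca-1Hi, log2 difference 1.97 ± 0.34 SE, adjusted p = 9.00e-04). These differences were small and the count fell to 11 without UGE replicate 2 and 16 without UGE replicate 3.

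**Figure D3:**
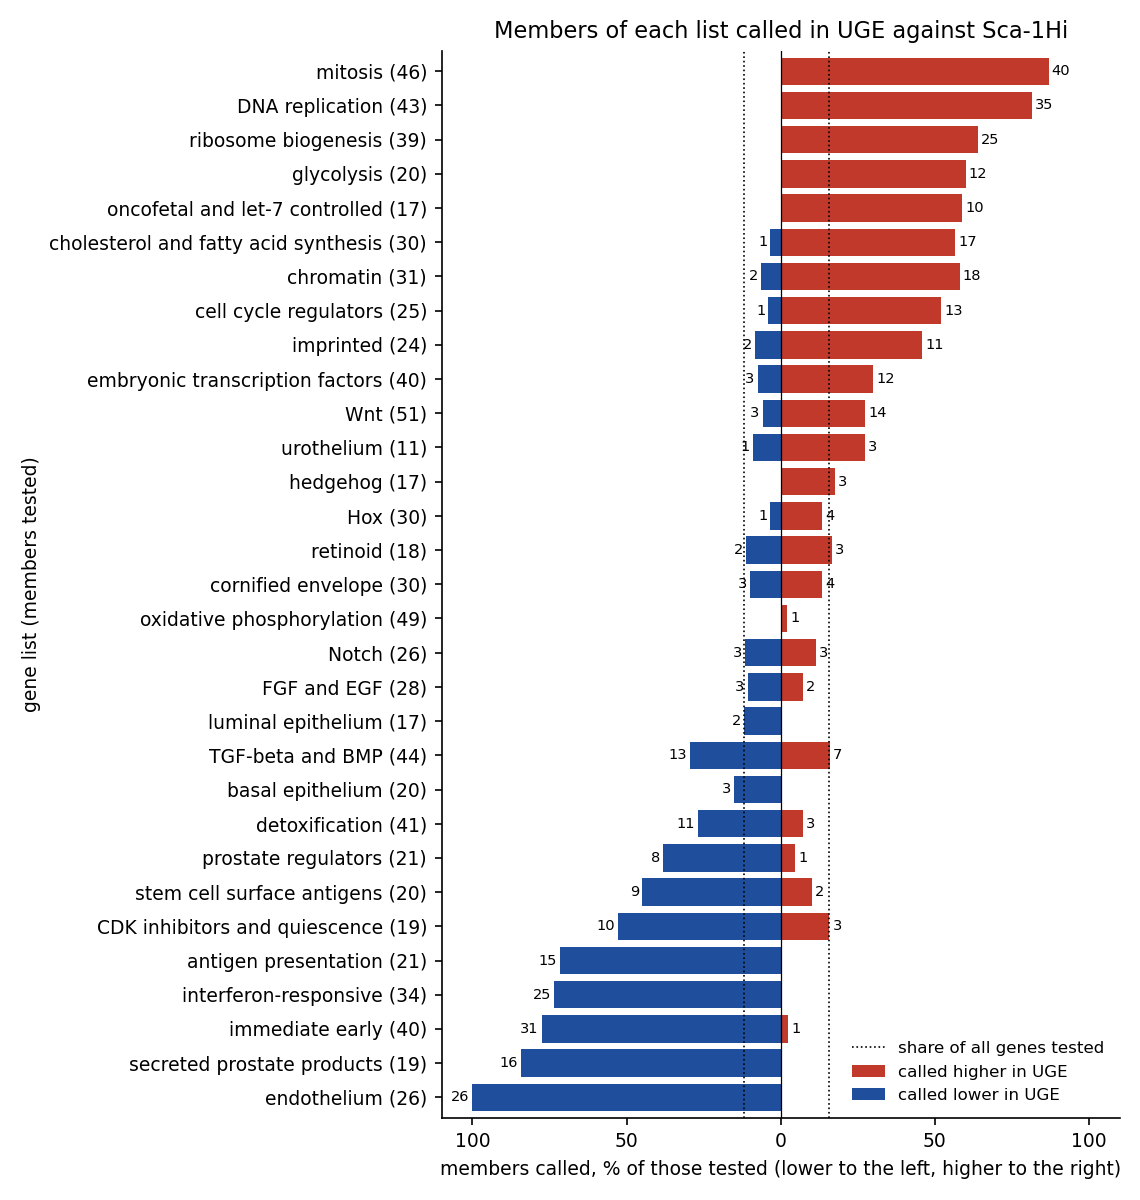
Share of the tested members of each gene list called higher (red, to the right) or lower (blue, to the left) in UGE against Sca-1Hi, in percent, with the number called at the end of each bar and the number tested in parentheses. Dotted lines mark the shares over all genes, 15.8% higher and 12.0% lower. Mitosis (40 of 46) and endothelium (26 of 26) lie at the ends, and Notch genes (3 higher and 3 lower of 26) lie near the dotted lines on both sides.

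Transcription factors of embryonic epithelium were called higher in 12 of 40 and lower in 3. *Foxa2*, a factor of endoderm, had 604, 1482 and 708 in UGE and 2.04, 6.895 and 1.37 in Sca-1Hi (at least 42.9-fold higher, adjusted p = 4.98e-07). *Sox11*, a factor of embryonic tissues, had 2954, 3849 and 4014 in UGE and 77.5, 149 and 126 in Sca-1Hi (log2 difference 4.98 ± 0.34 SE, adjusted p = 6.17e-07), with 6 of 6 probe sets called. *Grhl3*, which guides surface epithelium, had 1712, 3499.9 and 2038 in UGE and 189, 140.3 and 123 in Sca-1Hi (log2 difference 3.96 ± 0.63 SE, adjusted p = 5.06e-04) and *Tead2*, a partner of Yap, 1083, 1228 and 1207 in UGE and 92.9, 58.3 and 124 in Sca-1Hi (log2 difference 3.74 ± 0.37 SE, adjusted p = 1.12e-05). *Ovol1*, a zinc finger factor of skin, was 6.46-fold higher, adjusted p = 2.27e-05. *Foxa1* and *Trp63*, which are expressed in adult prostate epithelium too, were not called (log2 differences 0.16 and 1.03, adjusted p = 0.856 and adjusted p = 0.371). The 3 called lower were *Irx5*, *Sox9* and *Msx1*, and leaving out 1 array left 0 to 3 of them, with 0 without UGE replicate 1 or Sca-1Hi replicate 2 and 1 without UGE replicate 2, UGE replicate 3 or Sca-1Hi replicate 3. Hox genes, which set position along the body, gave 4 higher and 1 lower of 30, near or under the background of 15.8% and 12.0%, and 2 higher without UGE replicate 3. *Hoxa7*, called lower, was lost without UGE replicate 2, UGE replicate 3 or Sca-1Hi replicate 2.

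Of the signalling pathways, Wnt genes gave 14 of 51 higher and 3 lower, and the 14 were 9 without UGE replicate 3, Sca-1Hi replicate 1 or Sca-1Hi replicate 2. The 3 called lower were 1 without UGE replicate 3, Sca-1Hi replicate 2 or Sca-1Hi replicate 3, and 5 with 75th percentile centring. The receptor *Fzd3* (1023, 1407 and 1231 in UGE and 103, 54.6 and 88.8 in Sca-1Hi, log2 difference 3.93 ± 0.33 SE, adjusted p = 3.11e-06) and the ligands *Wnt6* (1634, 2094 and 2174 in UGE and 219.5, 219 and 229 in Sca-1Hi, log2 difference 3.13 ± 0.38 SE, adjusted p = 5.49e-05) and *Wnt10a* (log2 difference 2.07 ± 0.40 SE, adjusted p = 0.00186) were higher, and the receptor *Fzd4*, known from vessels, was lower (63.97, 108 and 80.4 in UGE and 512, 685 and 646 in Sca-1Hi, log2 difference -2.89 ± 0.42 SE, adjusted p = 2.32e-04). Hedgehog genes gave 3 of 17 (17.6%) higher, near the 15.8% of all genes, and 1 without Sca-1Hi replicate 2. *Ptch1*, the receptor and a target of the pathway, had 1948, 1773 and 2157 in UGE and 444, 446 and 772 in Sca-1Hi (log2 difference 1.87 ± 0.49 SE, adjusted p = 0.0122), and its difference of 1.74 without Sca-1Hi replicate 2 did not pass. Of 3 *Ptch1* probe sets, 1 was called. TGF-beta and BMP genes gave 7 of 44 (15.9%) higher, near the 15.8% of all genes, and 13 (29.5%) lower, against 12.0%. The receptors *Tgfbr1* and *Bmpr1a* and the messengers *Smad2* and *Smad3* were higher (1.98, 1.84, 1.35 and 1.68 on the log2 scale). Their probe sets called higher were 1 of 3, 3 of 6, 2 of 2 and 1 of 2. *Tgfbr1* and *Smad3* lost the call with the mean of probe sets, and *Bmpr1a*, *Smad2* and *Smad3* when tested against the minimum fold itself. The endothelial receptors *Acvrl1* (27.3, 18.2 and 23.6 in UGE and 362, 595 and 652 in Sca-1Hi, log2 difference -4.52 ± 0.48 SE, adjusted p = 1.88e-05) and *Eng* (-2.84) were lower, as was *Id4*, an inhibitor of basic helix-loop-helix factors (-2.75).

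Notch genes gave 3 higher and 3 lower of 26 (11.5% each way), near or under the shares of 15.8% and 12.0% over all genes. Among those lower, *Dll1*, a ligand, had 53.4, 67.996 and 40.3 in UGE and 629, 866 and 1113 in Sca-1Hi (log2 difference -4.01 ± 0.42 SE, adjusted p = 1.69e-05) and *Notch4*, a receptor of endothelium, 57.9, 35.5 and 34.6 in UGE and 321, 277 and 444 in Sca-1Hi (log2 difference -3.04 ± 0.41 SE, adjusted p = 1.23e-04). The 3 called higher were none without UGE replicate 2 or UGE replicate 3 and 1 without Sca-1Hi replicate 2. In retinoid signalling, 3 were higher and 2 lower of 18 (16.7% and 11.1%), also near the shares over all genes. *Aldh1a2*, which makes retinoic acid in embryos, had 2201, 1264 and 986 in UGE and 14.1, 21.2 and 107 in Sca-1Hi (log2 difference 5.46 ± 0.84 SE, adjusted p = 3.63e-04), and its relative *Aldh1a1* had 387, 593 and 418 in UGE and 3913, 5628 and 6158 in Sca-1Hi (log2 difference -3.49 ± 0.55 SE, adjusted p = 4.64e-04), so the enzymes of the same step went opposite ways. *Crabp2*, which binds retinoic acid, was at least 20.2-fold higher, adjusted p = 1.69e-05, and *Cyp26b1*, which breaks it down, was 4.901-fold lower, adjusted p = 0.00281. Growth factors of the FGF and EGF families gave 2 higher and 3 lower of 28 (7.14% and 10.7%), under the shares over all genes. *Fgf13* was 27.1-fold higher, adjusted p = 0.00114 (log2 difference 4.76, or 4.05 with low signals set to 20), *Erbb3*, a receptor of neuregulins, was 4.38-fold higher, adjusted p = 0.00146 with 1 of its 2 probe sets called lower, and the EGF receptor ligand *Hbegf* was 8.22-fold lower, adjusted p = 0.00279. The 3 called lower were 1 without UGE replicate 3 and 5 with either other scaling, 75th percentile centring or quantile normalization.

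The median difference was largest for proteins that the adult gland secretes, -6.90 (-5.87 with signals at the floor set to 20), with 16 of 19 called lower in UGE and none higher. *Msmb*, a microseminoprotein, had 14.1, 30.7 and 6.19 in UGE and 14201, 8124 and 13979.7 in Sca-1Hi (at least 508-fold lower, adjusted p = 4.57e-08). The trypsin inhibitor *Spink1* had 3.64, 9.93 and 7.01 in UGE and 9024, 5778 and 7556 in Sca-1Hi (at least 367-fold lower, adjusted p = 3.42e-09), and the transglutaminase *Tgm4* 7.25, 38.5 and 13.3 in UGE and 6192, 3636 and 3662 in Sca-1Hi (at least 175-fold lower, adjusted p = 5.29e-07). The seminal vesicle protein genes *Svs4* (19.2, 225 and 11.4 in UGE and 12700.2, 8751 and 11463 in Sca-1Hi) and *Svs5* (27.3, 144 and 10.3 in UGE and 12023, 6145 and 10604 in Sca-1Hi) were highest in UGE on replicate 2, and were 296-fold lower and 268-fold lower over the 3 arrays. The means of *Pbsn* were 12933 in Sca-1Lo and 11491 in Sca-1Neg, against 11760.4 in Sca-1Hi, and those of *Msmb* were 13259.5 in Sca-1Lo and 11318 in Sca-1Neg, against 12102. Those of *Tgm4* were lower in Sca-1Hi, 4497 against 8491 in Sca-1Lo and 9155 in Sca-1Neg, as were those of *Svs5*, 9591 against 12683 in Sca-1Lo and 14044 in Sca-1Neg, and these differences between the adult populations were not tested. In bulk samples, fewer cells of a type and less RNA per cell cannot be told apart.

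Regulators of the adult prostate were lower in 8 of 21 and higher in 1. *Zbtb16*, a transcriptional repressor induced by androgen and glucocorticoid, was at least 35.8-fold lower, adjusted p = 6.09e-06 (14.9, 16.4 and 23.2 in UGE and 646, 769 and 858 in Sca-1Hi), and *Fkbp5*, a target of the same hormones, 4.88-fold lower, adjusted p = 0.00723 (260.5, 242 and 243 in UGE and 1086, 1267 and 1295 in Sca-1Hi). *Spdef*, an Ets factor of secretory cells, was at least 5.87-fold lower, adjusted p = 0.00252, and *Nr3c2*, the mineralocorticoid receptor, 5.18-fold lower, adjusted p = 5.71e-04. The member called higher was *Pgr*, the progesterone receptor (281, 288 and 375 in UGE and 43.98, 48.7 and 65.9 in Sca-1Hi, log2 difference 2.58 ± 0.33 SE, adjusted p = 8.92e-05), with 1 of 3 probe sets called. *Hoxb13* and *Foxa1*, factors of the prostate lineage, were not called (log2 differences -0.38 and 0.16).

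Of 20 basal genes 3 were lower and none higher, and of 17 luminal genes 2 were lower and none higher, with 1 lower on leaving out any array other than Sca-1Hi replicate 3. In both lists the share called lower was near the 12.0% of all genes, while 15.8% of all genes were called higher. With 75th percentile centring or quantile normalization, 5 basal genes and 1 luminal gene were lower. The basal keratin *Krt5* had 6090.2, 8559 and 7072 in UGE and 5874, 8478 and 9488 in Sca-1Hi (log2 difference -0.12 ± 0.69 SE, adjusted p = 0.923) and *Krt15* 10642, 11424 and 11266 in UGE and 7577, 9211 and 9899 in Sca-1Hi (log2 difference 0.33 ± 0.52 SE, adjusted p = 0.691). *Trp63*, the regulator of basal cells, had 2407, 3820.4 and 3332 in UGE and 888, 2201 and 1839 in Sca-1Hi (log2 difference 1.03 ± 0.80 SE, adjusted p = 0.371), so its groups did not overlap yet missed the threshold, with a 95% interval from -0.68 to 2.74 on the log2 scale. Of the 4 *Trp63* probe sets, 1 was called lower, as was 1 of 3 for *Krt14*. The luminal keratin *Krt8* had 8172, 11140.3 and 9219.9 in UGE and 8729.5, 8607 and 7476 in Sca-1Hi (log2 difference 0.19 ± 0.36 SE, adjusted p = 0.743) and the adhesion molecule *Epcam* 1959, 1707 and 1969 in UGE and 2109, 1264 and 884 in Sca-1Hi (log2 difference 0.49 ± 0.53 SE, adjusted p = 0.535). The members called lower included *Itgb4*, an integrin of hemidesmosomes (194, 401 and 263 in UGE and 635, 2158 and 1576 in Sca-1Hi, log2 difference -2.24 ± 0.55 SE, adjusted p = 0.00903), *Cd44*, a hyaluronan receptor (164, 73.3 and 175 in UGE and 1192, 1474 and 1032 in Sca-1Hi, log2 difference -3.25 ± 0.41 SE, adjusted p = 7.40e-05), and *Cldn10*, a claudin (at least 24.4-fold lower, adjusted p = 2.98e-04). A p that misses the threshold does not show equal levels. Against Sca-1Neg, 9 of the 20 basal genes were higher in UGE, where 16.3% of all genes were called higher.

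*Upk3a* (934, 1843 and 1087 in UGE and 32.3, 17.2 and 9.72 in Sca-1Hi, at least 52.5-fold higher, adjusted p = 1.03e-05) and *Upk3b* (at least 26.1-fold higher, adjusted p = 1.92e-05), which encode uroplakins of the urothelial surface, were higher, and *Upk1b* was not called (4875, 6683 and 5819 in UGE and 4372, 3843 and 2940.01 in Sca-1Hi, log2 difference 0.65 ± 0.45 SE, adjusted p = 0.318). Of 11 urothelial genes 3 were higher and 1 lower, the fatty acid carrier *Fabp4* (51.3, 79.7 and 40.5 in UGE and 4685, 995 and 2239 in Sca-1Hi, log2 difference -5.32 ± 0.49 SE, adjusted p = 6.05e-06), which is also a gene of capillaries and fat. Cornified envelope genes gave 4 higher and 3 lower of 30, under the shares of 15.8% and 12.0% over all genes, with *Tgm1*, a transglutaminase (664, 1042 and 611 in UGE and 36.1, 33.3 and 37.9 in Sca-1Hi, log2 difference 4.39 ± 0.39 SE, adjusted p = 4.79e-06), and *Lypd3* (18.04-fold higher) higher and *Nccrp1* lower (2.74, 4.799 and 3.61 in UGE and 274, 198 and 321 in Sca-1Hi, at least 12.95-fold lower, adjusted p = 2.05e-05). The means of *Nccrp1* were 3.51 in Sca-1Lo and 6.44 in Sca-1Neg, so Sca-1Hi stood above both. The 3 called lower were 1 without Sca-1Hi replicate 1.

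**Figure D4:**
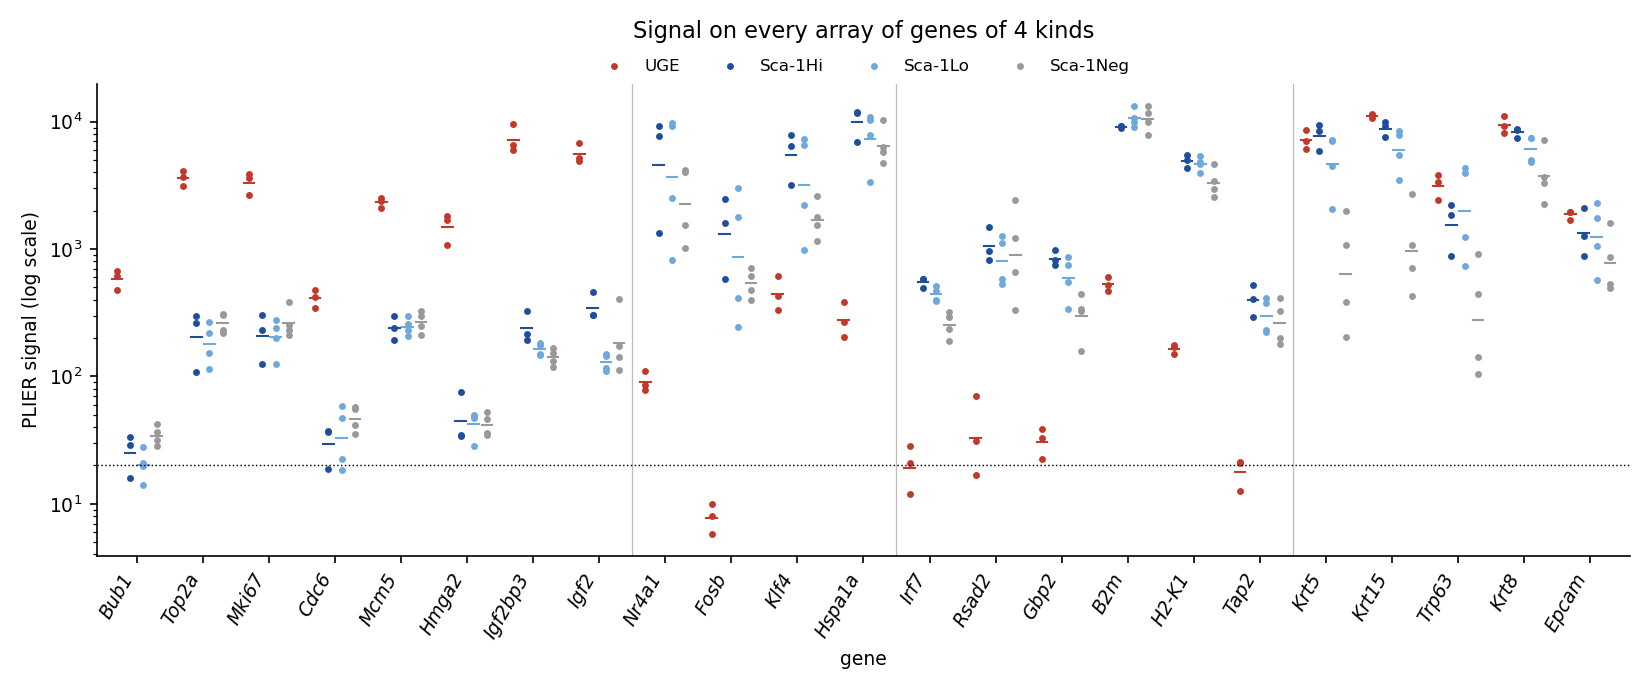
PLIER signal (log scale) on each of the 14 arrays for genes of division and fetal growth (*Bub1* to *Igf2*), immediate early and stress genes (*Nr4a1* to *Hspa1a*), interferon-responsive and antigen presentation genes (*Irf7* to *Tap2*) and epithelial genes (*Krt5* to *Epcam*), with a dot for each array and a bar at the mean of the log2 signals. UGE (red) lies above Sca-1Hi in the first kind, below in the next pair of kinds and among or beside it in the last.

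Antigen presentation and interferon-responsive genes were lower in UGE. Of 21 genes of the MHC and its peptide supply, 15 were called lower and none higher (median -3.37, -2.37 with signals at the floor set to 20). *B2m*, the light chain of class I molecules, had 601, 472 and 522 in UGE and 9225, 8857 and 9309 in Sca-1Hi (log2 difference -4.11 ± 0.25 SE, adjusted p = 2.57e-07), and the heavy chain gene *H2-K1* 171, 151 and 175 in UGE and 4356, 4962 and 5449 in Sca-1Hi (log2 difference -4.89 ± 0.26 SE, adjusted p = 8.00e-08). Their replicates lay close together and the groups far apart. *Tap2*, a subunit of the peptide transporter, was at least 19.1-fold lower, adjusted p = 3.54e-06. *H2-Aa*, a class II gene of antigen-presenting cells, was at least 22.1-fold lower, adjusted p = 5.40e-04, and its means were 909.8 in Sca-1Lo and 3394 in Sca-1Neg. MHC genes resemble each other in sequence, so probe sets of single members may share signal. Interferon-responsive genes gave 25 of 34 lower and none higher (median -2.34). *Irf7*, a regulator of the response, had 20.9, 28.6 and 11.9 in UGE and 496, 587 and 581 in Sca-1Hi (log2 difference -4.85 ± 0.32 SE, adjusted p = 4.59e-07), *Rsad2*, an antiviral enzyme, 69.8, 31.1 and 16.7 in UGE and 971, 821 and 1503 in Sca-1Hi (log2 difference -5.003 ± 0.66 SE, adjusted p = 1.14e-04), *Gbp2*, a guanylate-binding protein, 22.4, 38.9 and 32.7 in UGE and 815, 751 and 976 in Sca-1Hi (log2 difference -4.78 ± 0.41 SE, adjusted p = 3.36e-06) and *Ifi27* 56.2, 29.8 and 24.1 in UGE and 1371, 1656 and 1841 in Sca-1Hi (log2 difference -5.55 ± 0.37 SE, adjusted p = 5.29e-07). No UGE array exceeded 69.8 in *Irf7*, *Rsad2*, *Gbp2* or *Ifi27*. Counts against Sca-1Lo and Sca-1Neg were 25 and 24 lower of 34, and 15 and 17 lower of 21 for the MHC group.

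Immediate early and stress genes gave 31 of 40 lower and 1 higher (median -3.12). *Atf3*, a stress-induced factor, had 44.6, 29.5 and 41.4 in UGE and 3641, 14457 and 10295 in Sca-1Hi (log2 difference -7.75 ± 0.76 SE, adjusted p = 1.02e-05). *Nr4a1*, a nuclear receptor induced within minutes of stimulation, had 85.7, 111 and 77.7 in UGE and 1337, 9205 and 7728 in Sca-1Hi (log2 difference -5.66 ± 0.92 SE, adjusted p = 5.81e-04), and *Fosb*, a subunit of AP-1, 5.78, 9.96 and 7.999 in UGE and 578, 2467 and 1608 in Sca-1Hi (at least 65.9-fold lower, adjusted p = 1.80e-05). *Ccn1*, a matrix protein, had 118, 54.4 and 126 in UGE and 2058, 8662 and 7191 in Sca-1Hi (log2 difference -5.76 ± 0.81 SE, adjusted p = 1.90e-04), and the heat shock gene *Hspa1a* 202, 383 and 269 in UGE and 6945, 11734 and 11909 in Sca-1Hi (log2 difference -5.17 ± 0.44 SE, adjusted p = 3.60e-06). In all 5 genes Sca-1Hi replicate 1 was the lowest of its group, and every UGE array lay far below it. The means were high in the other sorted adult populations as well, for *Nr4a1* 5598 in Sca-1Lo and 2700.01 in Sca-1Neg and for *Fosb* 1366 in Sca-1Lo and 550.1 in Sca-1Neg. With 1 array left out, 23 to 31 were lower. The member called higher was *Fosl2*, an AP-1 subunit (2917, 4947 and 4669 in UGE and 797, 1437 and 1337 in Sca-1Hi), lost without UGE replicate 2 (1.68), UGE replicate 3 (1.72) or Sca-1Hi replicate 1 (1.55). By the methods, the Sca-1Hi cells were digested and sorted and the UGE was dissected, while the labels speak of sorted cells for UGE too. Any difference in preparation cannot be told apart from the difference between the populations.

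Surface antigens used to find stem cells were lower in 9 of 20 and higher in 2. The sorted antigen itself, *Ly6a*, was 150.2, 193 and 262 in UGE and 9358, 10253 and 10878 in Sca-1Hi. Its means of 10163 in Sca-1Hi, 6450 in Sca-1Lo and 581 in Sca-1Neg check the sort and are no finding. Sca-1Hi cells were chosen for high Sca-1, so the difference of *Ly6a* from UGE is not read as a finding either. Those higher were *Kit*, the stem cell factor receptor (477, 551 and 648 in UGE and 48.5, 34.98 and 39.5 in Sca-1Hi, log2 difference 3.77 ± 0.40 SE, adjusted p = 1.98e-05), and *Bcl2*, a survival factor inside the cell (3172, 5259 and 3589 in UGE and 688, 686 and 719.97 in Sca-1Hi, log2 difference 2.49 ± 0.45 SE, adjusted p = 0.00131). *Cd34* (114, 48.2 and 39.1 in UGE and 1065, 1699 and 3131 in Sca-1Hi, log2 difference -4.89 ± 0.67 SE, adjusted p = 1.43e-04) and *Procr* (at least 25.7-fold lower, adjusted p = 3.14e-06), markers of blood stem cells and endothelium, were lower, as were *Cd200*, an immune-regulatory membrane protein (463, 340.4 and 427 in UGE and 2310.4, 3385 and 4869.98 in Sca-1Hi, log2 difference -3.05 ± 0.61 SE, adjusted p = 0.00257), and the drug efflux pumps *Abcg2* (517, 364 and 355 in UGE and 1727, 2270.2 and 4011 in Sca-1Hi, log2 difference -2.63 ± 0.55 SE, adjusted p = 0.0032) and *Abcb1a* (11.3, 14.1 and 6.56 in UGE and 1675, 2279 and 2433 in Sca-1Hi, at least 105-fold lower, adjusted p = 1.21e-07). Of 14 other Ly6 family genes 5 were higher and 4 lower, with 1 lower without UGE replicate 3 or Sca-1Hi replicate 1. *Ly6e*, a relative of *Ly6a*, was 11.2-fold lower, adjusted p = 3.78e-05, and *Lypd6b* and *Lypd2*, other members of the family, were 17.4-fold higher and 9.43-fold higher. Detoxification genes gave 11 of 41 lower and 3 higher, including *Aldh3a1* (at least 44.5-fold lower, adjusted p = 1.57e-06), *Gsta3* (8.94-fold lower, adjusted p = 3.85e-04) and *Gstm1* (4.77-fold lower, adjusted p = 1.72e-04), and the 11 were 7 without Sca-1Hi replicate 3. Zinc transporters and metallothioneins gave 3 higher and 3 lower of 17 (17.6% each way, against 15.8% and 12.0% of all genes). With 75th percentile centring or quantile normalization, 5 were lower. The zinc importer *Slc39a10* (3378, 5459.6 and 4726 in UGE and 749, 666 and 1169 in Sca-1Hi, log2 difference 2.41 ± 0.38 SE, adjusted p = 4.49e-04) was higher and another, *Slc39a8* (230.3, 247 and 339 in UGE and 3521, 2741 and 1564 in Sca-1Hi, log2 difference -3.20 ± 0.57 SE, adjusted p = 0.00106), lower.

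Genes of other cell types moved with the comparison. All 26 endothelial genes were lower in UGE (median -5.50, -4.84 with signals at the floor set to 20), against 12.0% of all genes. The 6 defining markers summed to 137 to 574 on the UGE arrays and 7886 to 13482 in Sca-1Hi, and *Pecam1* and *Tie1* were at the floor in UGE. *Cldn5*, the claudin of vessel walls, had 58.2, 15.7 and 24.7 in UGE and 2727, 4443 and 4278 in Sca-1Hi (log2 difference -7.04 ± 0.54 SE, adjusted p = 1.53e-06), *Cdh5*, the cadherin of endothelial junctions, 133, 14.01 and 24.1 in UGE and 1536, 1221 and 2351 in Sca-1Hi (log2 difference -5.53 ± 0.64 SE, adjusted p = 3.72e-05), and *Plvap*, a protein of capillary pores, 88.1, 4.55 and 17.4 in UGE and 2730.2, 3993 and 4684 in Sca-1Hi (log2 difference -7.60 ± 0.77 SE, adjusted p = 1.32e-05, or -6.82 with low signals set to 20). UGE replicate 1 was the highest of its group in all 3. The means of *Cldn5* were 1196 in Sca-1Lo and 141 in Sca-1Neg and those of *Vwf*, the clotting factor stored by endothelium, 1007 in Sca-1Lo and 216 in Sca-1Neg, against 2201 in Sca-1Hi. Endothelial signal was present in the Sca-1Hi gate, and its part in other genes that were lower in UGE (*Tm4sf1*, *Abcb1a*, *Cd34*, *Procr*, *Notch4*, *Acvrl1*, *Klf2*, interferon and MHC genes) was not tested.

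Smooth muscle and pericyte genes were lower in 9 of 18 and higher in 1, *Notch3*. The call of *Notch3* was lost, leaving 0 higher, without UGE replicate 2 or UGE replicate 3, and 2 were higher without Sca-1Hi replicate 3. Their 6 markers summed to 998 to 2778 in UGE and 7751 to 22626 in Sca-1Hi, most on replicate 3. *Acta2*, smooth muscle actin, had 1773, 362 and 252 in UGE and 5385, 6014 and 12128 in Sca-1Hi (log2 difference -3.75 ± 0.56 SE, adjusted p = 3.10e-04). The 6 fibroblast markers overlapped, with sums of 5654 to 16244 in UGE and 4934 to 43347 in Sca-1Hi, and none was called. The wider fibroblast list gave 2 higher and 6 lower of 35, and 4 and 4 without Sca-1Hi replicate 3. *Vim*, the filament protein of mesenchyme and endothelium, had 2920.4, 609 and 862 in UGE and 8668, 11746 and 11819 in Sca-1Hi (log2 difference -3.21 ± 0.53 SE, adjusted p = 6.50e-04). The 6 leukocyte markers summed to 1357 to 2151 and 826 to 2423, and of these *Cd52* was called lower (43.96, 29.9 and 24.6 in UGE and 1815, 324 and 555 in Sca-1Hi, log2 difference -4.43 ± 0.70 SE, adjusted p = 4.54e-04). *Csf1r*, *Laptm5*, *Tyrobp* and *Itgb2* were not called, with log2 differences of 1.84, 1.58, 0.65 and 0.56, nor was *Ptprc* (43.2, 38.7 and 47.9 in UGE and 12.3, 14.6 and 2.92 in Sca-1Hi). The wider leukocyte list gave 1 higher and 2 lower of 27 (median 0.55), with 0 higher on leaving out any array other than Sca-1Hi replicate 3 and 1 lower without Sca-1Hi replicate 1. With a block for replicate number in the fit, 11 of the 27 were higher and 3 lower. The 4 nerve and glia markers measured summed to 444 to 4614 in UGE, highest on replicate 1, and 237 to 420 in Sca-1Hi. Of 23 nerve genes 7 were called higher and 1, *Grp*, lower, with 4 higher without Sca-1Hi replicate 2 and 3 without Sca-1Hi replicate 3. *Gap43*, a growth cone protein, had 1177, 119 and 143 in UGE and 13.98, 18.7 and 25.2 in Sca-1Hi (at least 12.6-fold higher, adjusted p = 6.52e-04), and *Nefm*, a neurofilament, 2076, 126 and 162 in UGE and 5.95, 5.26 and 1.95 in Sca-1Hi (at least 17.4-fold higher, adjusted p = 4.73e-04). The 4 red cell markers measured summed to 124 to 5772 in UGE and 232 to 482 in Sca-1Hi. Over all genes, 2442 were higher and 1977 lower without UGE replicate 1, and 2253 and 1509 without Sca-1Hi replicate 3. The 6 epithelial markers summed to 29541 to 42237 in UGE and 21209 to 27151 in Sca-1Hi, and the 6 basal markers to 21804 to 28539 and 17875 to 27540.

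**Figure D5:**
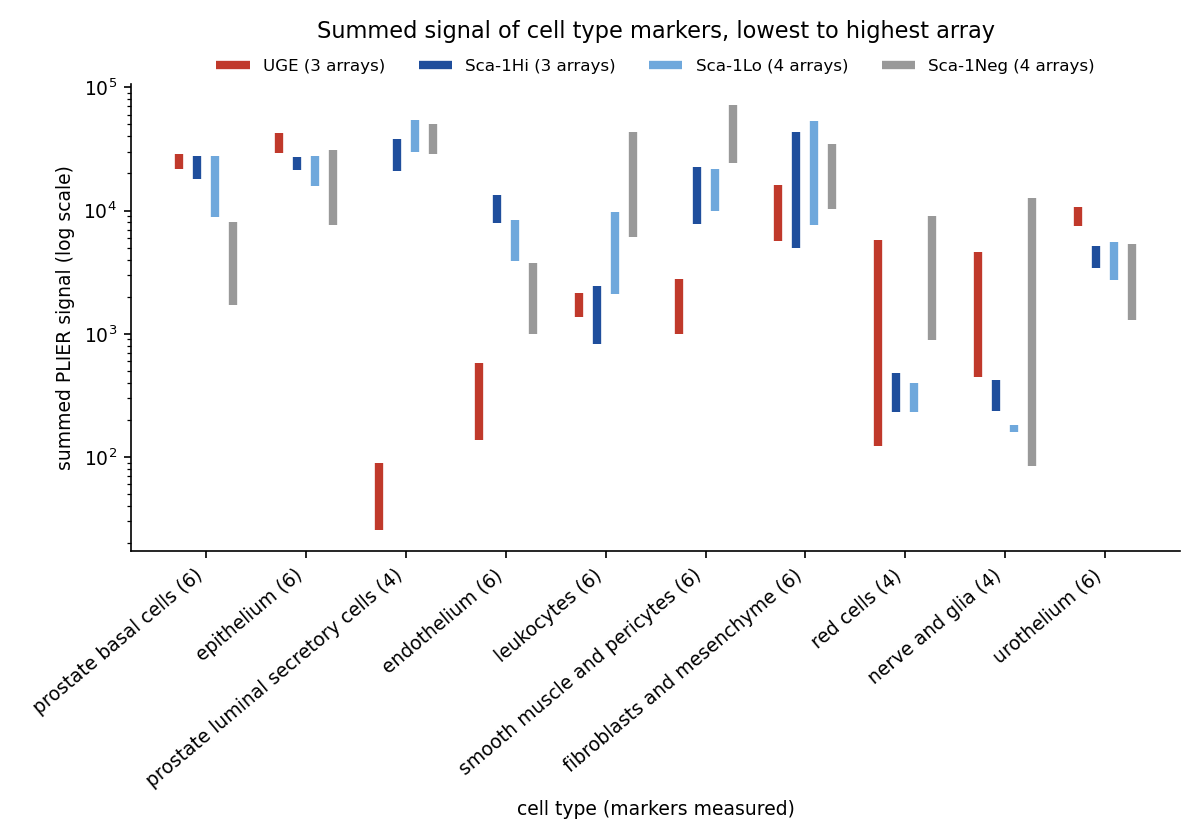
Summed PLIER signal (log scale) of the markers of 10 cell types, drawn for each population as a bar from its lowest to its highest array, with the number of markers measured in parentheses. UGE and Sca-1Hi overlap in basal, leukocyte, fibroblast and red cell markers, UGE lies above in the epithelial, urothelial and nerve markers, and Sca-1Hi lies above in the luminal secretory, endothelial and muscle markers.

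*Xist*, the RNA that silences an X chromosome in female cells, had 5069, 9983 and 8877 in UGE and 114, 146 and 118 in Sca-1Hi (log2 difference 5.93 ± 0.27 SE, adjusted p = 1.89e-08), with all 3 probe sets called higher. *Eif2s3y*, a gene of the Y chromosome, had 339, 409.8 and 478 in UGE and 804, 1415 and 1399 in Sca-1Hi (log2 difference -1.53 ± 0.41 SE, adjusted p = 0.0147), and this call was lost without Sca-1Hi replicate 2 (-1.39) or Sca-1Hi replicate 3 (-1.40). *Uty* and *Kdm5d*, others of the Y chromosome, were not called (-0.75 and -0.55, adjusted p = 0.0971 and adjusted p = 0.113). UGE samples held RNA of both kinds, and the part of sex in other genes was not tested.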

How the data were processed

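The authors hybridized total RNA, amplified by a double labelling protocol, to mouse expression arrays, with 1 array for each of the 14 samples. The deposited values are PLIER signals, an intensity per probe set on a linear scale. PLIER, which fits all arrays together, was the authors' normalization, and MAS5 gave detection calls. Whether arrays were also scaled to each other is not given in the sources used here. Probe sets that exceeded 20 on no array were dropped, and log2 was taken with no constant added. Array controls were left out. Of 45101 probe sets, 34945 had a single named gene, and each gene took the values of whichever of its probe sets had the highest mean log2 signal. The 4 group means were fitted to all 14 arrays with limma 3.58.1 in R 4.3.3, with Benjamini-Hochberg adjustment over all probe sets, and the script was tested on simulated data. Only 3 arrays a group limit the precision. Genes were named as the 15 largest differences each way among called genes without overlap, up to 6 called members of each list each way, and cell type markers. Members of lists that were not called are given for contrast and were chosen after their values were seen. The gene lists and rules were chosen with earlier results of these data known. Alternatives covered filtering, scaling, the test, the variance estimate, the replicate block, the probe set rule and leaving out each array.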

Additional observations from a re-analysis of the deposited data

How the results depend on the processing

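Directions of the called genes among those named held under all 19 alternatives except for *Abcb10*, an ABC transporter called higher. *Abcb10* reached -0.17 with the mean of its probe sets. Of 262 called genes among those named, 161 kept the call in every alternative, 82 lost it when tested against the minimum fold itself and 46 under the methods' t-test. The test against the minimum fold called 1498 probe sets higher and 1491 lower, and 753 and 744 genes. The methods' t-test at the same thresholds, after Benjamini-Hochberg adjustment, called 4530 probe sets higher and 3146 lower. Array weights, whose estimation stopped before it converged, called 9827 probe sets and 3936 genes lower, and the higher share of called probe sets was 42.2% against 52.4%. Centring on the 75th percentile moved the median over all probe sets from -0.09 to -0.23 and gave 2498 genes higher and 2517 lower. Leaving out 1 array gave 3809 to 4911 probe sets higher and 3198 to 4626 lower, the lowest without UGE replicate 3, and 1900 to 2442 genes higher and 1386 to 1977 lower. With the replicate block, 7005 probe sets were higher and 7243 lower, and 3396 and 2825 genes, and the basal genes went from 3 to 8 lower and from 0 to 2 higher. The leukocyte genes went from 1 to 11 higher and from 2 to 3 lower with it. Deviations of same-numbered arrays correlated at 0.39, 0.36 and 0.02, and not every array correlated best with its own number. Deviations taken from a mean of 3 arrays depend on one another, so these values cannot settle whether the numbers pair the samples. The cause of the changes between alternatives was not tested. Of 19 lists with 10 or more members called in a direction, 0 changed direction in any alternative. Signals near 20 give only bounds.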
